A study of Acer rubrum with 15 samples.

Results

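miR408 is a family of plant microRNAs, short RNAs that direct the cutting of matching messenger RNAs. The leaves profiled here came from cuttings of Acer rubrum 'Autumn Blaze', an ornamental maple, kept at different light levels and temperatures. The members are the table entries of mature or hairpin type whose names begin with miR408. There were 6 of them among 343 mature and hairpin entries, namely 3 mature entries (of 167) and the 3 hairpin entries (of 176) with the same names. Small RNA was sequenced in 15 libraries, 3 in each of 5 groups. LL leaves had 14 days of 40% light in the cool regime (days of 15 °C, nights of 5 °C), and LC leaves had 14 days of full (100%) light in that regime. CL leaves had 14 days of 40% light in the warm regime (days of 30 °C, nights of 20 °C), and CC leaves had 14 days of full light in that regime. Control was mixed leaves of untreated cuttings on day 0, with no light level in the labels. All cuttings were of that cultivar and had been grown in a greenhouse before. Replicates are labelled as biological, but separate plants are not mentioned, and the p-values therefore speak only for the spread among these libraries, which may be technical.

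In Arabidopsis, where it has been studied most, miR408 lowers the messenger RNAs of copper proteins of the cell wall and of electron transfer, among them plantacyanin and several laccases. It accumulates there when copper is scarce, through the copper-sensing factor SPL7, together with miR397, which targets laccases, and miR398, which targets copper/zinc superoxide dismutases. These copper microRNAs are thought to spare copper for plastocyanin, the copper protein of photosynthetic electron transport, and miR408 is among the most widely conserved microRNAs of land plants.

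The 3 mature names differ in the reference miRNAs they stand for. miR408-3p_2 is listed under 16 names from other plants, Arabidopsis, poplar, grapevine and soybean among them, and held 75677 reads, 69.6% of all miR408 reads over the 15 libraries. miR408d is listed under a single soybean name and held 15041 reads (13.8%). miR408b_1 is listed under 4 names, including those of a moss, tobacco and potato, and held 13210 reads (12.2%). The 3 hairpin (precursor) entries held 2398, 646 and 1722 reads under miR408-3p_2, miR408d and miR408b_1. All 6 entries had reads in all 15 libraries. The deposited table pairs none of these names with a sequence, and the way reads were shared out among near-identical members cannot be checked.

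The libraries held 15652847 to 20822592 counted reads, of which 9.90% to 26.4% carried a miRNA name. Levels are given in CPM, counts scaled to a common total of mature and predicted miRNA reads after TMM scaling (the trimmed mean of M-values, which corrects for a few very abundant RNAs). Family levels are sums of mature and hairpin reads on that same scale. Log2 changes are given ± SE, and a difference passed where its adjusted p (edgeR's quasi-likelihood test, Benjamini-Hochberg) was under 0.05 over the 34 families or 179 miRNAs tested. LC replicate 1 was far above both other LC libraries in the abundant miR398 family, and Control replicate 2 far above both other Control libraries in miR408-3p_2, so results that rest on them are also given without them. A small-RNA table holds no marker genes of leaf cells, so the leaf label was not checked, and in bulk leaf tissue fewer cells carrying a miRNA and less of it per cell cannot be told apart.

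As a family, miR408 was lowest after 14 days of warm full light and highest at day 0 and in the cool shade. It stood at 6126, 8448 and 2629 CPM in LL replicates 1, 2 and 3. In LC the levels were 1119, 158 and 807 CPM. In CL they were 1575, 1074 and 721 CPM. CC leaves held 179, 71.8 and 69.1 CPM. Control leaves held 3070, 12761 and 2906 CPM. Each LL library lay above every LC, CL and CC library, while the LL and Control ranges overlapped. From the lowest group mean to the highest, the order was CC (106.5 ± 62.5 CPM, SD, n = 3), LC (695 ± 491), CL (1123 ± 429), LL (5734 ± 2929) and Control (6246 ± 5643). Neighbours in this order that were not separated were LC and CL, whose ranges overlapped and which were not tested against each other, and LL and Control. LC and CC overlapped in 1 library each, LC replicate 2 and CC replicate 1. By mean level miR408 ranked 12 of 34 families in LL, 18 in LC, 17 in CL, 22 in CC and 9 in Control.

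**Figure D1:**
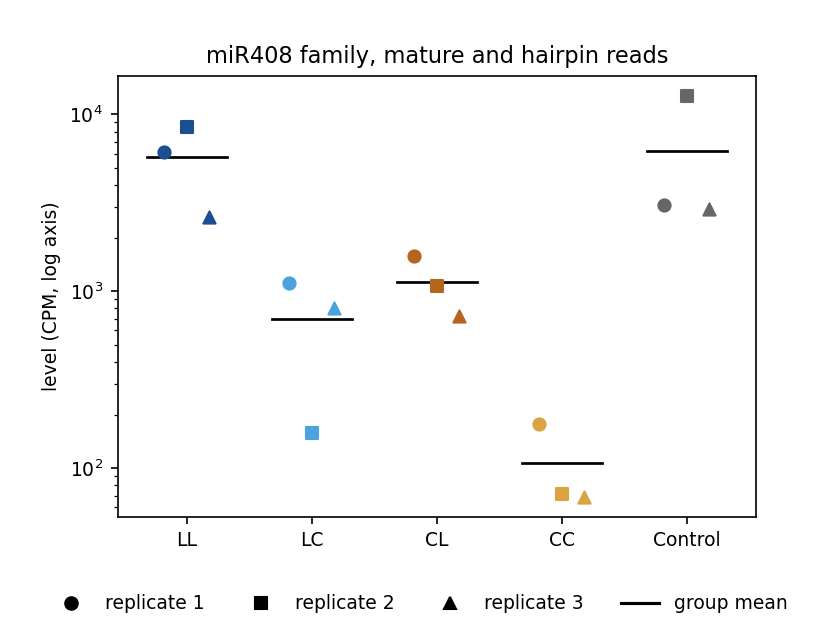
Level of the miR408 family (mature plus hairpin reads, CPM on a log axis) in each library, by group, with the group mean as a black line and the symbol shape giving the replicate. The 3 LL libraries lie between 2629 and 8448 CPM and the 3 CC libraries between 69.1 and 179 CPM.

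The question of how cool temperature relates to miR408 was addressed at each light level. Under full light the family rose 6.51-fold in LC over CC (log2 change 2.70 ± 0.78, adjusted p = 0.0109), in a comparison in which 38.2% of the 34 families were called higher. The difference kept its call without each of the 6 libraries in turn, at log2 changes of 2.21 to 3.22. Under 40% light it rose 5.10-fold in LL over CL (2.35 ± 0.77, adjusted p = 0.0338), where 26.5% of families were called higher. All 3 LL libraries lay above all 3 CL libraries, as in 35.3% of families. That call did not hold when CL replicate 2 or 3 or LL replicate 1 or 2 was left out, with library size alone as the scaling, and with miR408-3p_2 standing in for the family (adjusted p = 0.0100 to 0.127 over all alternatives); the change without LL replicate 2 was 1.74. The difference between the 2 temperature effects was -0.35 ± 1.03 (adjusted p = 0.81), in a comparison in which 29.4% of families passed.

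Light was compared at each temperature. In the warm regime the family rose 10.5-fold in CL over CC (3.40 ± 0.80, adjusted p = 0.00417), with no overlap between the groups. Here 8.82% of the 34 families were called higher, 3 in number, and 14.7% lay wholly higher. The number called higher was 3 to 6 with other scalings. CC replicate 1 was the highest of its group, and without it the log2 change was 4.22 (adjusted p = 0.00405, 7.95e-06 to 0.0276 over all alternatives). In the cool regime the family rose 8.25-fold in LL over LC (3.05 ± 0.79, adjusted p = 0.00556), again without overlap. There 20.6% of families were called higher and 26.5% lay wholly higher. No library left out ended this call, with changes of 2.56 to 3.50.

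Against day 0, the regimes differed in how much miR408 the leaves had after 14 days. In CC the family was 58.6-fold lower than in Control (-5.87 ± 0.90, adjusted p = 0.000113), where 17.6% of families were called lower. Its log2 change was -5.19 without Control replicate 2 and -6.52 without CC replicate 1. The LC level was 8.99-fold lower than in Control (-3.17 ± 0.79, adjusted p = 0.0047; 17.6% of families called lower), with changes of -2.10 without Control replicate 2 and -3.76 without LC replicate 1. CL leaves had 5.56-fold less than Control leaves (-2.48 ± 0.77, adjusted p = 0.0191; 32.4% of families called lower). That last call was lost without Control replicate 2 (log2 change -1.51, adjusted p = 0.133, 0.00369 to 0.133 over all alternatives), without CL replicate 2 or 3, and with miR408-3p_2 in place of the family. LL and Control differed by -0.12 ± 0.73 (adjusted p = 0.868; 14.7% of families called lower), a difference that was 0.65 without Control replicate 2 and 0.31 with TMM factors taken from the family sums. These 4 comparisons share the Control libraries and are not independent of one another. Control was mixed leaves taken on day 0, so in comparisons with it 14 days of time, the leaf mix and the regime cannot be told apart.

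**Figure D2:**
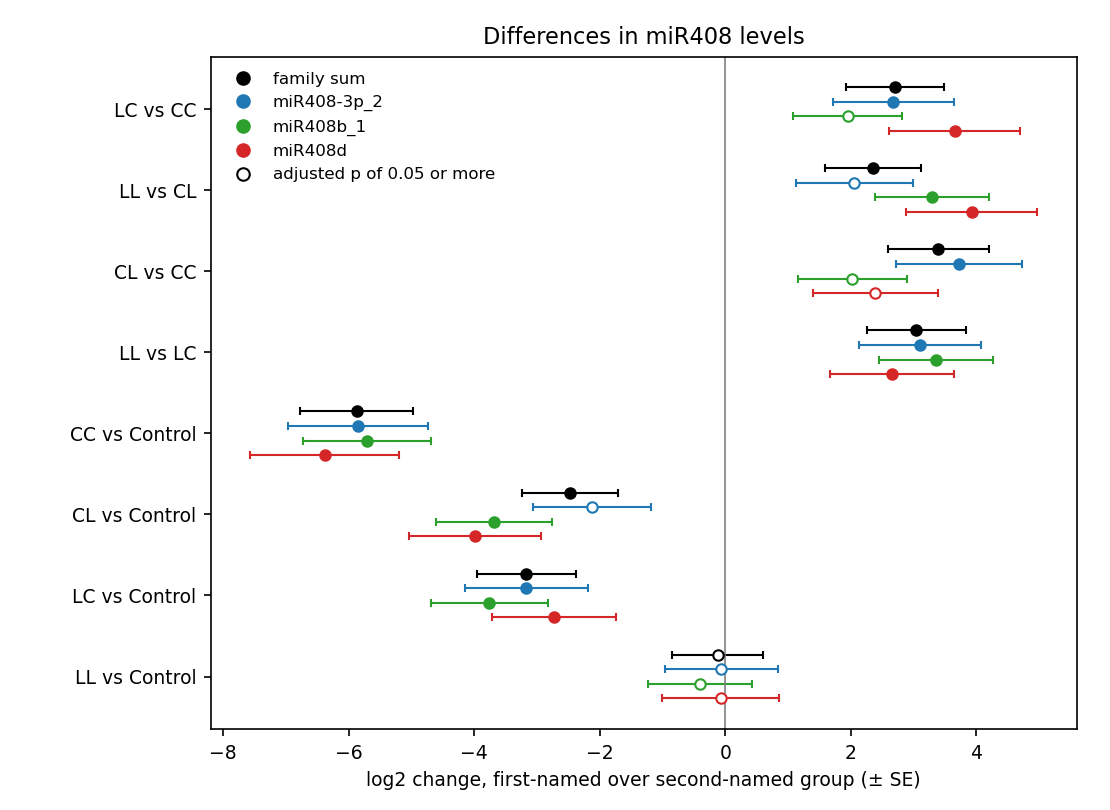
Log2 change (± SE, horizontal axis) of the miR408 family and of its 3 mature entries in 8 comparisons, first-named over second-named group; open symbols did not pass at an adjusted p of 0.05. The family lies at 2.35 to 3.40 in the 4 comparisons between regimes and at -5.87 in CC against Control, and the LL against Control values lie near 0.

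miR408-3p_2 was the most abundant and most widely shared form. It held 69.6% of all miR408 reads summed over the 15 libraries, but from 39.2% to 94.4% of the mature reads of single libraries. Its levels therefore weigh heavily on the family sum, though less so in LC replicates 2 and 3. Its levels were 3961, 6058 and 1943 CPM in LL and 1009, 59.6 and 325 CPM in LC. They were 1275, 945 and 651 CPM in CL and 125, 45.4 and 46.3 CPM in CC. In Control they were 1550, 9027 and 1946 CPM. All 3 LL and all 3 CL libraries were above all 3 CC libraries, as in 15.6% of miRNAs between CL and CC, while the LC libraries overlapped both the CC and the CL range and lay 16.9-fold apart from lowest to highest. The CL over CC estimate was the largest of the 3 mature entries, at 13.2-fold (3.72 ± 1.01, adjusted p = 0.0286), against 4.47% of 179 miRNAs called higher. In LL over LC the log2 change was 3.10 ± 0.98 (adjusted p = 0.0199; 31.8% of miRNAs called higher), and 4.30 without LC replicate 1.

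Cool against warm was less settled for miR408-3p_2. It passed in LC over CC (2.68 ± 0.96, adjusted p = 0.0402; 18.4% of miRNAs called higher), but without LC replicate 1 the change was 1.43 (adjusted p = 0.211, 0.00482 to 0.211 over all alternatives). It did not pass in LL over CL (2.06 ± 0.94, adjusted p = 0.146; 17.3% of miRNAs called higher), although the LL libraries lay wholly above the CL libraries, as in 29.6% of miRNAs. The LC over CC call was also lost with library size only (adjusted p = 0.0705), with predicted miRNAs left out (0.0563), with hairpin entries added (0.0527) and in the fit to the compared groups alone (0.115). Calls were lost too without CC replicate 2 or 3 in LC over CC, without CC replicate 2 or 3 or CL replicate 1 in CL over CC, and without LC replicate 3 in LL over LC. The change in CL over CC was 4.61 without CC replicate 1.

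miR408d, the entry with a single soybean name, had the largest estimated temperature differences of the 3 mature entries. The errors of the entries overlap, and the direct test against miR408-3p_2, given below, did not pass with all libraries. It stood at 1252, 1033 and 264 CPM in LL and at 40.1, 64.1 and 299.7 CPM in LC. Levels were 108, 43.5 and 16.1 CPM in CL, 15.9, 9.49 and 6.39 CPM in CC, and 506, 1851 and 321 CPM in Control. All 3 LC libraries lay above all 3 CC libraries, as in 22.3% of miRNAs, and all 3 LL libraries above all 3 CL libraries, as in 29.6%. The rise was 12.6-fold in LC over CC (3.66 ± 1.04, adjusted p = 0.0137) and 15.2-fold in LL over CL (3.92 ± 1.05, adjusted p = 0.0194). Without LC replicate 3 the LC change was 2.29 (adjusted p = 0.0676, 0.000251 to 0.0676 over all alternatives), and that call was lost without CC replicate 3 too. In LL over CL the change was 3.15 without LL replicate 1, which ended the call as did leaving out CL replicate 2 or 3, and 4.90 without CL replicate 1.

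The shade differences of miR408d were smaller in relation to their errors. The CL libraries lay wholly above the CC libraries by a narrow margin, as in 15.6% of miRNAs. The log2 change of 2.39 ± 0.99 did not pass (adjusted p = 0.118). In LL over LC the change of 2.66 ± 0.99 passed (adjusted p = 0.0399). The call held without LC replicate 3 (4.02) or LL replicate 3 and was lost with each other library of the 2 groups left out. It was also lost with library size only, with library sizes from every read in the table, in the fit to the compared groups alone and with the replicate number as a block (adjusted p = 0.00476 to 0.159 over all alternatives).

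miR408b_1, listed under moss, tobacco and potato names, was near the level of miR408d in most groups. Its levels were 661, 1026 and 315 CPM in LL and 19.3, 28.3 and 147.6 CPM in LC. They were 134, 48.0 and 22.9 CPM in CL, 28.7, 11.5 and 9.98 CPM in CC, and 839, 1295 and 503 CPM in Control. All 3 LL libraries lay above all 3 LC libraries, as in 33.5% of miRNAs, and above all 3 CL libraries, as in 29.6%. They also lay above all CC libraries, and the LC, CL and CC ranges overlapped. The LL leaves had 9.78-fold more than CL leaves (3.29 ± 0.91, adjusted p = 0.0213) and 10.3-fold more than LC leaves (3.36 ± 0.91, adjusted p = 0.00954). The first of these did not pass with library size only (2.71, adjusted p = 0.0667) or when LL replicate 1 or 2 or CL replicate 2 or 3 was left out (2.63 without LL replicate 2, adjusted p = 0.000662 to 0.0752 over all alternatives) and stood at 4.26 without CL replicate 1, and the second stood at 4.81 without LC replicate 3. Neither LC over CC (1.95 ± 0.87, adjusted p = 0.0917) nor CL over CC (2.02 ± 0.87, adjusted p = 0.134) passed. The LC over CC change was 2.42 without LC replicate 1 (adjusted p = 0.0422) and 0.51 without LC replicate 3 (adjusted p = 0.658), with an adjusted p of 0.040 to 0.658 over all alternatives.

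By count, 2 of the 3 mature entries passed as higher in LC over CC, beside 18.4% of all 179 miRNAs. In LL over CL it was 2 beside 17.3%, in CL over CC 1 beside 4.47%, and in LL over LC 3 beside 31.8%. None passed the test of whether the temperature effect differed between light levels, at -0.62 ± 1.28 for miR408-3p_2, 1.34 ± 1.19 for miR408b_1 and 0.27 ± 1.36 for miR408d, where 34.6% of miRNAs passed. Against Control, 3 were lower in CC, with log2 changes of -5.85 ± 1.11 for miR408-3p_2, -5.71 ± 1.02 for miR408b_1 and -6.39 ± 1.18 for miR408d (9.50% of miRNAs called lower). The miR408-3p_2 change was -6.56 without CC replicate 1, -6.47 without Control replicate 1 and -4.96 without Control replicate 2. That of miR408b_1 was -6.39 without CC replicate 1, and that of miR408d -5.66 without Control replicate 2. In CL 2 were lower (18.4% of miRNAs), miR408b_1 at -3.69 ± 0.92 (-4.74 without CL replicate 1) and miR408d at -3.99 ± 1.05 (-4.99 without CL replicate 1 and -3.02 without Control replicate 2). The change of miR408-3p_2 did not pass (-2.12 ± 0.94, adjusted p = 0.122). In LC 3 were lower (19.6% of miRNAs), among them miR408b_1 at -3.76 ± 0.93 (-5.23 without LC replicate 3). Of the LC calls, that of miR408-3p_2 (-3.17 ± 0.98) was lost without Control replicate 2 or LC replicate 3 and in the fit to the compared groups alone. That of miR408d (-2.73 ± 0.99, adjusted p = 0.0497) was lost without Control replicate 2 or LC replicate 1 or 2, with library size only, with the replicate block and in the fit to the compared groups alone. Without Control replicate 2 both stood at -1.83 (adjusted p = 0.181 for miR408-3p_2, 0.00173 to 0.181 over all alternatives, and 0.175 for miR408d, 0.00396 to 0.175). The miR408-3p_2 change was -4.49 without LC replicate 1 and that of miR408d -4.12 without LC replicate 3. In LL against Control 0 of 3 passed, with changes of -0.07 to -0.40 and 6.15% of miRNAs called lower.

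**Figure D3:**
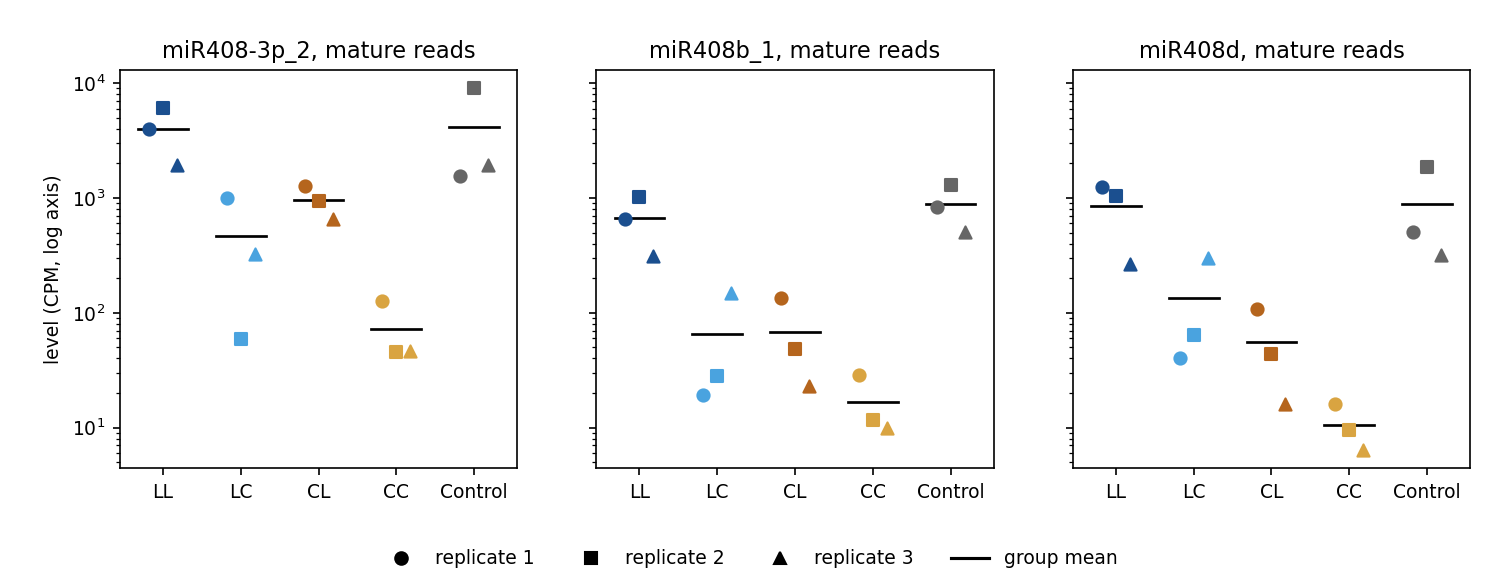
Level of each mature miR408 entry (CPM, shared log axis) in each library, by group, with the group mean as a black line and the symbol shape giving the replicate. LC replicate 1 is the highest LC library for miR408-3p_2 (1009 CPM) and the lowest for miR408b_1 (19.3 CPM) and miR408d (40.1 CPM).

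The make-up of the family varied between groups and, in LC, between libraries. miR408-3p_2 held 73.0% ± 4.99 of the mature miR408 reads in LL, 89.9% ± 5.28 in CL, 72.0% ± 3.18 in CC and 66.0% ± 10.9 in Control (SD, n = 3 each). In LC it held 94.4% in replicate 1 (95% Wilson interval 93.5% to 95.2%, of 2662 reads), 39.2% in replicate 2 (34.6% to 44.1%, of 403 reads) and 42.1% in replicate 3 (39.7% to 44.4%, of 1695 reads). miR408d made up 3.76%, 42.2% and 38.8% of the same reads, so in LC replicates 2 and 3 it was as frequent as miR408-3p_2, and in LC replicate 1 it was not. These intervals cover counting error only. LC replicate 1 was also the library in which miR398b held 31.8% of the reads with known miRNA names, against 8.18% and 5.97% in the other LC libraries, and the part of this in the miR408 values was not tested.

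Because a ratio of reads within one library needs no scaling between libraries, the log2 ratio of miR408-3p_2 to miR408d was tested directly over the 12 day 14 libraries, with an exact permutation test of labels within the other factor (two-sided, smallest possible p 0.005) adjusted over 6 ratio tests. The ratio was 1.66, 2.55 and 2.88 in LL, 4.65, -0.11 and 0.12 in LC, 3.55, 4.44 and 5.32 in CL and 2.97, 2.23 and 2.82 in CC. In Control it was 1.61, 2.29 and 2.60. It was lower in the cool than in the warm regimes by 1.60 ± 0.84 (SE; exact permutation p = 0.075, adjusted p = 0.15). It was higher under 40% than under full light by 1.29 ± 0.84 (exact permutation p = 0.14, adjusted p = 0.18). Neither passed. Without LC replicate 1 the differences were -2.37 and 2.06, and both passed (adjusted p = 0.015 for each), so the result rests on whether that library is included. Over the alternatives other than 1 level of the other factor alone, where 3 against 3 libraries allow no p under 0.1, the adjusted p was 0.015 to 0.43 for both.

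**Figure D4:**
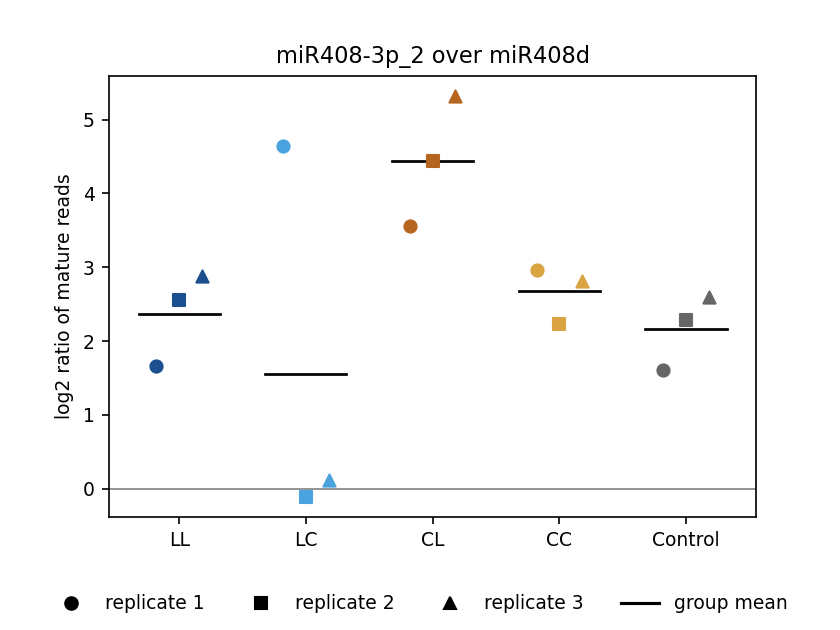
Log2 ratio of miR408-3p_2 to miR408d mature reads in each library (0.5 reads added to each), by group, with the group mean as a black line and the symbol shape giving the replicate. LC replicate 1 lies at 4.65, within the CL range of 3.55 to 5.32, and the other LC libraries lie near 0.

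Hairpin reads made up a small part of the family, 4.02% ± 0.10 in LL, 4.16% ± 0.51 in LC, 3.81% ± 0.37 in CL, 7.18% ± 2.23 in CC and 5.00% ± 0.62 in Control (SD, n = 3 each). The CC libraries held only 173 to 561 miR408 reads, so the CC value has a wide counting error. By entry the part was larger for miR408b_1 (10.8% to 12.9% in LL and 10.9% to 11.5% in Control) than for miR408-3p_2 (2.67% ± 0.55 in LL and 3.07% ± 0.40 in Control). The highest value for miR408b_1 was 37.7% in LC replicate 1, or 29 of 77 reads (95% Wilson interval 27.7% to 48.8%). Leaving out hairpin reads ended no call of the family.

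Of the 6 copper families listed for comparison, miR397 and miR398 had entries beside miR408, and miR857, miR1444 and miR528 had 0 mature or hairpin entries. miR397, the laccase regulator, stood at 316, 389 and 627 CPM in LL, 150.5, 76.6 and 63.8 CPM in LC, 67.2, 70.6 and 101 CPM in CL, 30.3, 16.9 and 14.8 CPM in CC, and 2423, 1459 and 1692 CPM in Control. miR398, the superoxide dismutase regulator, stood at 292629, 183969 and 232287 CPM in LL, 452916, 60119 and 46185 CPM in LC, 18570, 25944 and 36504 CPM in CL, 24696, 6916 and 6208 CPM in CC, and 386140, 337811 and 183307 CPM in Control. Both were lowest in CC, like miR408. Unlike miR408, miR397 was lower in every LL library than in every Control library.

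All 3 copper families, miR408 itself included, passed as higher in the cool regime at both light levels. Over all 34 families the share called higher was 38.2% in LC over CC and 26.5% in LL over CL. In LC over CC the log2 change of miR408 was 2.70, against a median of 0.51 over all 34 families. There miR397 stood at 2.22 ± 0.42 (adjusted p = 0.000705) and miR398 at 3.89 ± 0.86 (adjusted p = 0.00212). The miR398 change was 2.15 without LC replicate 1 and 4.75 without CC replicate 1. In LL over CL the log2 change of miR408 was 2.35, against a median of 0.47 over all families. That miR408 call was lost in 6 of 17 alternatives (adjusted p = 0.0100 to 0.127). There miR397 stood at 2.48 ± 0.42 (adjusted p = 0.000426) and miR398 at 3.13 ± 0.83 (adjusted p = 0.0111). The miR398 change did not pass when CL replicate 2 was left out (adjusted p = 0.0771, 0.000866 to 0.0771 over all alternatives).

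For shade, miR408 and miR397 passed as higher at each temperature, 2 of the 3 copper families, beside 8.82% of all families in CL over CC and 20.6% in LL over LC. miR397 rose 3.84-fold in CL over CC (1.94 ± 0.42, adjusted p = 0.00251; 2.56 without CC replicate 1) and 4.58-fold in LL over LC (2.20 ± 0.41, adjusted p = 0.000535). The miR398 change was 1.10 ± 0.77 in CL over CC (adjusted p = 0.318) and 0.34 ± 0.76 in LL over LC (adjusted p = 0.775). Without LC replicate 1 the LL over LC change of miR398 was 2.04 and passed (adjusted p = 0.0203, 0.0203 to 0.994 over all alternatives).

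Whether miR408 differed from these families in its response was tested on the ratios of their reads within a library. The log2 ratio of miR408 to miR398 was higher under 40% than under full light by 2.16 ± 0.63 (exact permutation p = 0.01, adjusted p = 0.06 over 6 ratio tests), and did not pass. Within the warm regime the difference was 2.12, with CL libraries at -5.66 to -3.56 and CC libraries at -7.11 to -6.49. Within the cool regime it was 2.19, with LL libraries at -6.47 to -4.44 and LC libraries at -8.66 to -5.84, which overlap. It passed without LC replicate 1 (1.92, adjusted p = 0.04) or LC replicate 3 (2.62, adjusted p = 0.03), and the adjusted p was 0.03 to 0.188 over the alternatives other than 1 regime alone. The highest of these came from the replicate block, whose smallest possible p is 0.0312 before adjustment. By temperature the same ratio differed by -0.93 ± 0.63 (exact permutation p = 0.15, adjusted p = 0.18). The ratio of miR408 to miR397 differed by 1.28 ± 0.60 with light (exact permutation p = 0.06, adjusted p = 0.15) and by 0.04 ± 0.60 with temperature (exact permutation p = 0.955, adjusted p = 0.955). Values that miss the threshold here do not show that the families respond alike.

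Against day 0, all 3 copper families passed as lower in CC (17.6% of all 34 families did), at -6.48 ± 0.50 for miR397 and -4.58 ± 0.88 for miR398 beside the -5.87 of miR408. In CL all 3 passed as well (32.4% of all families), with miR397 at -4.54 ± 0.46 and miR398 at -3.49 ± 0.84. The miR408 call in CL was lost in 4 of 17 alternatives. In LC 2 passed (17.6% of all families), miR397 at -4.26 ± 0.45 being lower and miR398 at -0.70 ± 0.77 (adjusted p = 0.477) not passing, although without LC replicate 1 it was at -2.60 (adjusted p = 0.00595, 0.00595 to 0.808 over all alternatives). In LL miR397 passed, 1 of the 3 (14.7% of all families), at -2.06 ± 0.41 (adjusted p = 0.00259), while miR398 differed by -0.36 ± 0.76 (adjusted p = 0.668). Without CC replicate 1 the miR398 change in CC was -5.56, and without LC replicate 1 the miR397 change in LC was -4.85.

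**Figure D5:**
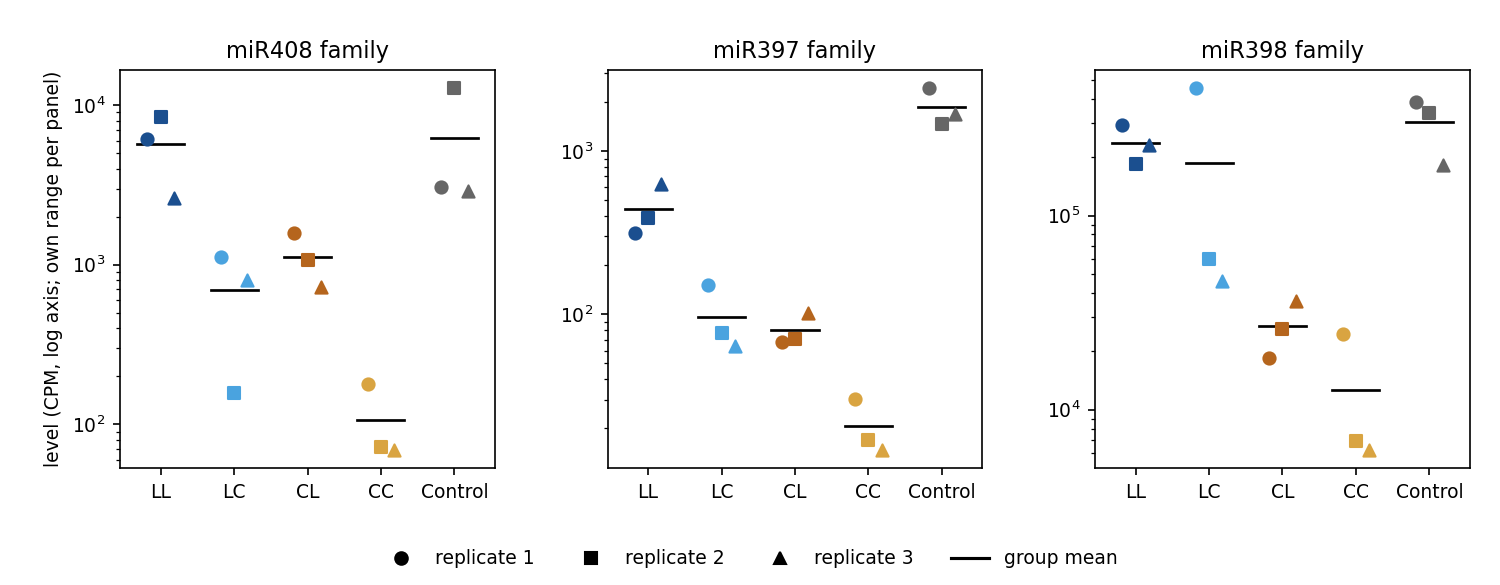
Levels of the miR408, miR397 and miR398 families (CPM, log axes with their own range) in each library, by group, with the group mean as a black line and the symbol shape giving the replicate. In each panel CC holds the lowest mean, at 106.5 CPM for miR408, 20.6 CPM for miR397 and 12607 CPM for miR398.

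The other 176 miRNAs tested were compared with the profile of the miR408 family over the 15 libraries. The measure was the root mean square difference of log2 levels (1 CPM added), each centred on its own mean. The nearest 5 were miR397a_3 (1.32 log2 units), the predicted miRNA novel_mir68 (1.37), miR397a_5 (1.37), miR398b (1.38) and the entry named miR398 (1.40), against a median of 2.50 over all 176. Of these, 4 belong to the copper families miR397 and miR398. Those families had 8 and 10 of the 343 mature and hairpin entries, a set unlike the 176 mature and predicted miRNAs compared here. How many of the 176 were of these families was not counted. One of the 4, miR397a_5, was near the floor in 3 groups. Its mean was 0.73 CPM in CC, 1.05 CPM in CL and 2.47 CPM in LC, so the added 1 CPM weighs on its profile. These values share libraries and scaling and are a description of likeness over these samples. novel_mir68 stood at 315, 410 and 361 CPM in LL, 130, 40.4 and 40.1 CPM in LC, 16.8, 23.7 and 27.4 CPM in CL and 677, 575 and 659 CPM in Control. In CC it stood at 4.78 and 5.19 CPM in replicates 1 and 3 and was listed at 0 in replicate 2.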

How the data were processed

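Raw read counts per small-RNA entry stood in a single table that the authors deposited, per the file headers. The TPM values beside them are, per the file headers and the values, counts scaled to the total of the whole table with no length term, deposited by the authors and not tested here. Aligner, genome build and databases: not given in the sources used here. Per the labels' protocols, libraries came from total RNA with a small-RNA kit that uses the 5' phosphate and 3' hydroxyl ends, PCR and gel separation.

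A family was the sum of all mature and hairpin reads with the same miRNA number. Library sizes and TMM factors (0.616 to 1.57) came from the mature and predicted miRNAs and were used for both tables. After filterByExpr, counts were fitted in edgeR 4.0.16 (R 4.3.3), with 5 group means over 15 libraries, for 9 comparisons; SE is the log2 change over the square root of F. Alternatives were other scalings and filters, DESeq2 1.42.0, fits to the compared groups alone, a replicate block, other family definitions and each library left out. Tests were checked only on simulated data of even spread with no outlying libraries. That check does not cover the outlying libraries of LC and Control. Members, lists and tests were chosen with earlier results of these data known. All miR408 entries, the copper families and the 5 miRNAs nearest in profile were named by rule. The reproductive-organ family miR2275 had 0 mature or hairpin entries. The depth was 173 to 33934 miR408 family reads per library, so for the family the spread between libraries, not counting error, limits precision. Single entries were shallower in CC, at 16 to 50 mature reads for miR408d and 25 to 90 for miR408b_1. Counting error weighs more on those values.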

Additional observations from a re-analysis of the deposited data

How the results depend on the processing

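Of 159 recomputed values of the miR408 family in 9 comparisons, 146 kept direction and call, and of 450 for its mature entries 392 did. For LL over CL the family had a log2 change of 1.86 with library size only and 2.06 with the most abundant mature member, and 1.74 to 2.70 with single libraries left out. For CL against Control it was -2.12 with the most abundant member and -2.88 to -1.51 with single libraries left out. For LL against Control it was 0.31 with TMM factors from the family sums, an alternative chosen after seeing the data, and -0.59 to 0.65 with single libraries left out, where miR408-3p_2 ranged from -0.60 to 0.90 and miR408d from -0.67 to 0.77. Ranges with single libraries left out were -2.37 to -1.18 (cool minus warm) and 0.87 to 2.06 (40% minus full light) for the ratio of miR408-3p_2 to miR408d, and 1.90 to 2.62 for that of miR408 to miR398 by light. For the ratio of miR408 to miR397 by temperature the range was -0.24 to 0.42, and the value was -0.17 under 40% light alone. The difference of the temperature effects ranged from -1.52 to 0.38 for miR408-3p_2, 0.46 to 2.76 for miR408b_1 and -0.48 to 1.61 for miR408d, whose value was -0.29 with library size only and -0.16 with the replicate block. For miR398 in LL over LC the range was -0.12 to 2.04. The cause was not tested in any of these.

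Replicate numbers are shared between groups, but deviations of same-numbered libraries of different groups correlated with a median of 0.01 (-0.42 to 0.47, 30 pairs), and 4 of 15 libraries correlated best with one of their own number, so the numbers were not taken as pairs. With the replicate block, the family change in LC over CC was 2.85, in LL over CL 2.32, in CL over CC 3.41 and in LL over LC 2.88, and no family call was lost. The miR408d calls in LL over LC (2.12, adjusted p = 0.159) and LC against Control (-2.23, adjusted p = 0.151) were lost, and no other call of the mature entries.

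With other scalings the log2 changes of the families shifted by a median of -0.44 to 0.40, depending on the comparison and scaling. Calls of families in CL over CC split into 3 higher and 8 lower, against 5 higher and 6 lower using size factors from relative log expression, and 6 higher and 4 lower with library size only. With predicted miRNAs left out, 31 of 105 miRNAs tested passed in LC over CC, against 76 of 179 with them. Among the mature entries, DESeq2 also called miR408b_1 in LC over CC (adjusted p = 0.040) and in CL over CC (adjusted p = 0.0273) and miR408d in CL over CC (adjusted p = 0.0211). Fits to the groups compared alone lost miR408-3p_2 in LC over CC (adjusted p = 0.115), LL over LC (0.0994) and LC against Control (0.103), and miR408d in LL over LC (0.0686) and LC against Control (0.103). They called miR408-3p_2 in LL over CL (adjusted p = 0.0286).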

Other observations

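An Rfam entry for the MIR408 precursor, counted apart from the 6 miR408 entries, held 40, 34 and 4 reads in LL, 8, 0 and 3 in LC, 4, 5 and 2 in CL, 0, 1 and 0 in CC and 51, 88 and 15 in Control. Summed over 3 libraries this was 78 reads in LL, 11 in LC, 11 in CL, 1 in CC and 154 in Control. The 2 groups with the most reads were those with the highest miR408 family level. A count of this size has a wide counting error, and no test was run on it.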
